A study of Rattus norvegicus with 9 samples.

Results

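The genes described here are 53 genes of DNA replication and of the synthesis of its building blocks, and their mRNA levels were compared on arrays of the rat prostate. They were chosen by symbol, with earlier results of these data known. They comprise the origin recognition and licensing factors, the MCM helicase, the factors that fire origins, the sliding clamp and its loader, the polymerases, the enzymes that finish the lagging strand, the enzymes that make deoxynucleotides, 2 E2F transcription factors and 3 genes of chromatin behind the fork. A probe was matched to 48 of the 53 genes, out of 15163 gene symbols matched on the array. No probe was matched to *Mcm5*, *Rpa1*, *E2f2*, *Chaf1a* or *Uhrf1*. A gene was tested when the scanner software had marked its probe as well above background (detected) on 3 or more of the 6 arrays of that comparison. This left 45 genes in at least 1 comparison and 43 in all 3 comparisons, and 36 of them were well above background on all 9 arrays. *Cdt1* and *Pole* were well above background on 2 of 9 arrays each and *Gins3* on 0 of 9, so no difference is given for them.

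Prostates of male Sprague Dawley rats, 6 weeks old at purchase, were examined in 3 groups with 3 arrays each. Sham rats were operated without castration and received corn oil subcutaneously and distilled water by mouth. BPH rats were castrated and received subcutaneous dihydrotestosterone at 3 mg/kg daily for 4 weeks, with water by mouth, as a model of benign prostatic hyperplasia (BPH). BPH+ghrelin rats received the same castration and androgen, and in addition rat ghrelin at 20 nmol/kg daily by gavage for 2 weeks, starting 2 weeks after the androgen. Castration and dihydrotestosterone were thus shared by BPH and BPH+ghrelin. Ghrelin is a peptide hormone of the stomach that acts on the growth hormone secretagogue receptor. RNA came from whole prostate tissue, so that more cells in S phase and more mRNA per cell cannot be told apart. All values are log2 signals, quantile normalized over the 9 arrays, and a difference of 1 on this scale is a 2-fold difference in signal.

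A cell copies its genome before it divides. The origin recognition complex marks the start sites, CDC6 and CDT1 load the MCM helicase there in G1, and the kinase CDC7-DBF4 together with CDC45 and the GINS complex turns the loaded helicase into a moving fork in S phase. Many of these genes, and those of ribonucleotide reductase, thymidylate synthase and thymidine kinase, are known targets of E2F transcription factors, which are released when RB is phosphorylated. In a normal adult prostate few epithelial or stromal cells divide, and the level of these mRNAs is commonly read as a sign of proliferation.

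The arrays differed in raw signal and in scan, in part along the groups. The median raw signal was 101 to 133 on the BPH arrays, 73.3 to 86.0 on the BPH+ghrelin arrays and 40.9 to 95.9 on the sham arrays, so that every BPH array was above the other 6, and 61.4% of probes were well above background on sham replicate 2 compared to 69.5% to 75.05% on the other 8 arrays. The arrays belonged to 3 scans. Scan 1 held all BPH arrays and BPH+ghrelin replicate 1, scan 2 held BPH+ghrelin replicates 2 and 3 and sham replicates 1 and 2, and scan 3 held sham replicate 3. Most probes had their middle value on the same array of a group, called here the in-between array. It was BPH replicate 2 for 74.8% of 17858 probes, BPH+ghrelin replicate 2 for 72.3% and sham replicate 3 for 77.0%. All 12 matched prostate epithelial markers were well above background on every array. The summed signal of these markers was 18.3 to 18.6 in BPH, 18.2 to 18.5 in BPH+ghrelin and 18.4 to 18.7 in sham on the log2 scale.

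Sequences before the start sites were read for words bound by E2F, because E2F is the factor most often named for this set of genes. A promoter entry of RefSeq (assembly GRCr8) was matched to 44 of the 53 genes, and the 250 bases before the annotated start were searched on both strands for TTTGGCGC, TTTGCCGC, TTTCGCGC and TTTCCCGC. At least 1 of these words was found in 10 of 44 promoters (22.7%), compared to 486 of 27457 promoters of all genes (1.77%). The 10 genes were *Gins1*, *Gins3*, *Mcm2*, *Mcm5*, *Mcm6*, *Mcm7*, *Orc3*, *Orc5*, *Pola1* and *Tyms*. The word CCAAT, searched in the same way, was found in 22 of 44 promoters (50%) compared to 34.2% of all promoters. The word TTTGAA was found in 4 of 44 (9.09%) compared to 16.1%. A match describes these letters only and is not a binding site. The windows below show 2 genes with overlapping words on both strands close to the start (*Gins1* and *Mcm2*), *Mcm6* and *Tyms*, *Orc5* as a gene with another pattern of expression, and *Mcm3* and *Tk1*, which had no word. They are given 5′ to 3′ along the gene, end at the base before the start, and carry the words in capitals. *Gins1* is at chr3:160184800-160184919 (plus strand), *Mcm2* at chr4:122918095-122918214 (minus strand), *Mcm6* at chr13:42404353-42404501 (minus strand), *Tyms* at chr9:120776084-120776203 (minus strand), *Orc5* at chr4:13440147-13440332 (plus strand), *Mcm3* at chr9:30733747-30733866 (minus strand) and *Tk1* at chr10:103544778-103544897 (minus strand), all in GRCr8.
Gins1: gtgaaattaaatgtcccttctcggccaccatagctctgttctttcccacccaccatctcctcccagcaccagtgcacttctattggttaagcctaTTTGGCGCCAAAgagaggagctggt
Mcm2: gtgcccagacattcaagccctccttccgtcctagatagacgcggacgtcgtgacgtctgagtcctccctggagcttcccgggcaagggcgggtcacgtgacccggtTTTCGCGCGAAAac
Mcm6: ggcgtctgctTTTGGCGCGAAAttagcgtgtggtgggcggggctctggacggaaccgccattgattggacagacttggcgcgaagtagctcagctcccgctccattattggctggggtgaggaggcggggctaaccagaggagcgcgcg
Tyms: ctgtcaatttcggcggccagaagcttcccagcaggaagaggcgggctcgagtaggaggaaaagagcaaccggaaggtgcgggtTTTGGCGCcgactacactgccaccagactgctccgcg
Orc5: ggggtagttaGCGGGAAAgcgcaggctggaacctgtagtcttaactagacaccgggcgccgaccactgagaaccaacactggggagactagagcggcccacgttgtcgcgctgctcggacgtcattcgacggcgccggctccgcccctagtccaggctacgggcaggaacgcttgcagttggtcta
Mcm3: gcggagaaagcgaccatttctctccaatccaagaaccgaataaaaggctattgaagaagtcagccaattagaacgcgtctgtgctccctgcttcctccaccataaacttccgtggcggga
Tk1: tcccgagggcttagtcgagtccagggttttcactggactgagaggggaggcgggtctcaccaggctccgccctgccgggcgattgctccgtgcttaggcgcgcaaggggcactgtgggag
In *Gins1* the word TTTGGCGC started at position −25 from the start on the plus strand and overlapped another copy on the minus strand, which makes a palindrome. In *Mcm2* the word TTTCGCGC was arranged in the same way at −14, and in *Mcm6* a TTTGGCGC and a TTTCGCGC overlapped at −139. *Tyms* had 1 word, at −37, and *Orc5* had 1 on the minus strand.

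**Figure D1:**
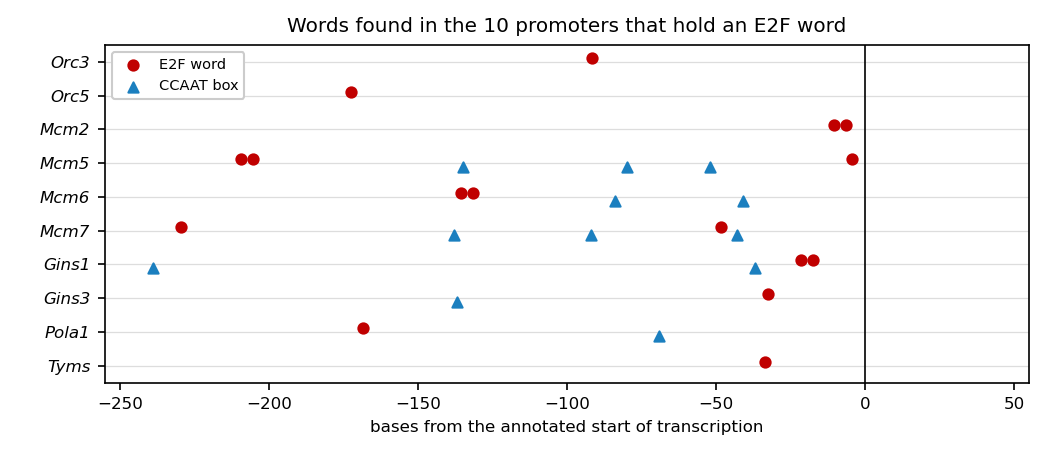
Positions of E2F words (red circles) and CCAAT words (blue triangles) in the 10 promoters that hold an E2F word, with bases from the annotated start of transcription on the horizontal axis (0 is the start, 250 bases before it were searched) and 1 gene per line. Words on both strands overlap in *Gins1*, *Mcm2*, *Mcm5* and *Mcm6* and appear as pairs of circles.

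By its median, though not for each gene, the set was highest in BPH+ghrelin and lowest in sham. For each gene, the deviation of an array from the mean of 9 arrays was taken, and the median of these deviations over the 45 genes was −0.24, −0.39 and −0.30 on sham replicates 1 to 3. It was −0.11, −0.029 and 0.14 on the BPH arrays, and 0.45, 0.33 and 0.23 on the BPH+ghrelin arrays. The 3 ranges did not overlap. BPH+ghrelin replicate 1 was the highest of the 9 arrays for 31 of 45 genes. BPH replicate 1 was the lowest for 12 of 45 and sham replicate 2 for 15 of 45. The set also varied within the groups, and the median range between the 3 arrays of a group was 0.44 in BPH and 0.46 in BPH+ghrelin, compared to 0.33 and 0.32 for all genes. In sham it was 0.47, compared to 0.60 for all genes. The range exceeded 1 for 11 of 45 genes in BPH, 6 in BPH+ghrelin and 10 in sham. The in-between array of a group was also in between for most of these genes, with 36 of 45 in BPH, 38 in BPH+ghrelin and 31 in sham.

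**Figure D2:**
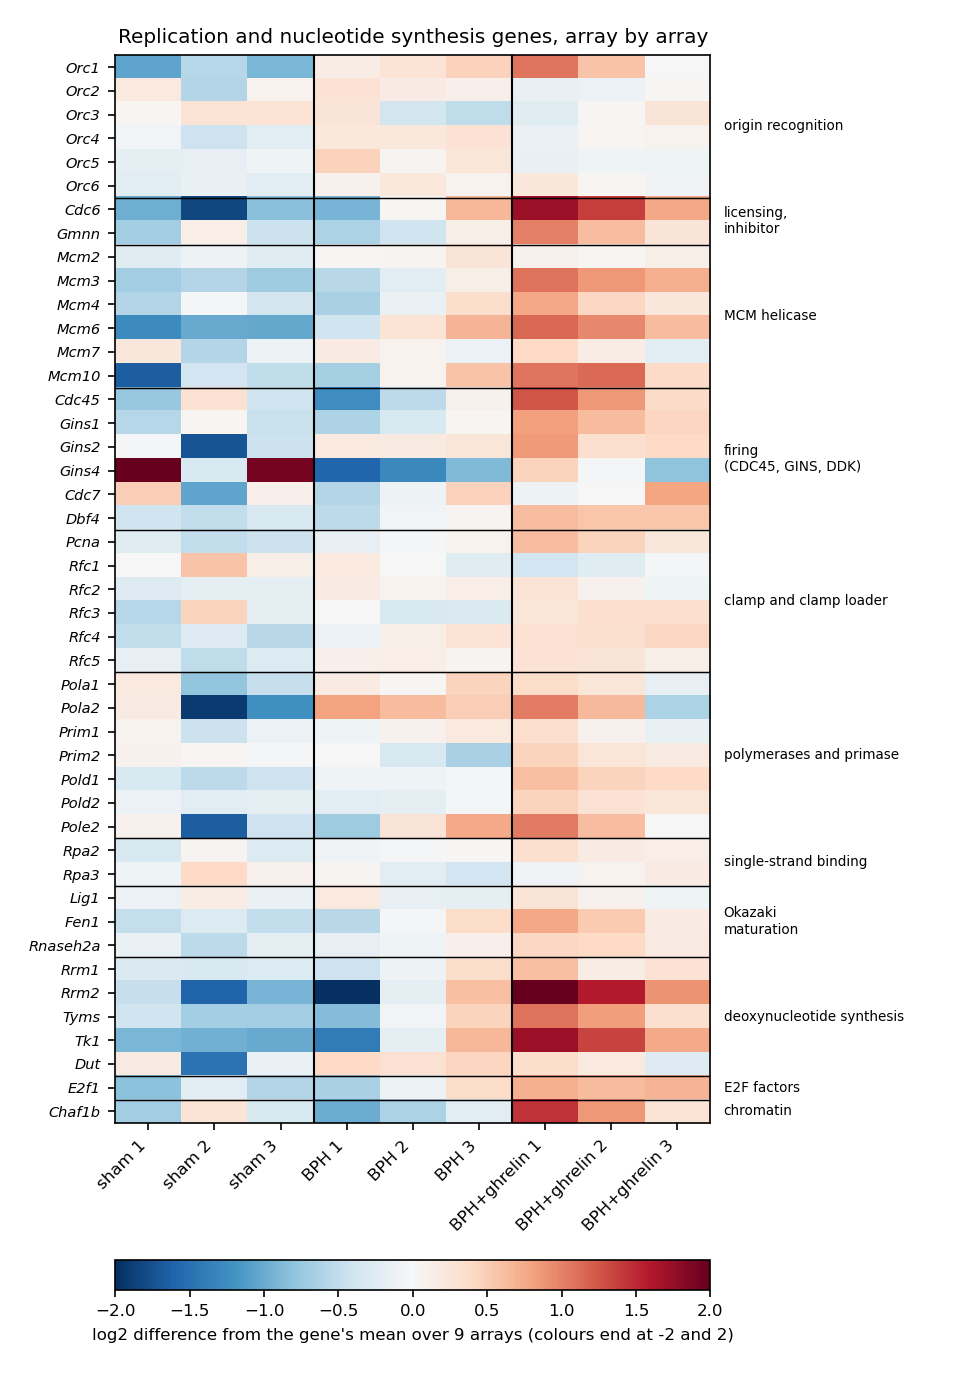
Log2 difference of each array (columns, sham, BPH and BPH+ghrelin, replicates 1 to 3) from the mean over 9 arrays for the 45 tested genes (lines, grouped by role); red is above and blue below the mean, and the colours end at −2 and 2. BPH+ghrelin replicate 1 carries the deepest red for most genes, the origin recognition genes other than *Orc1* are pale, and *Gins4* is dark red on sham replicates 1 and 3 only.

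By the study's description, BPH and BPH+ghrelin had as many rats on arrays as there were arrays, although the labels do not tie an array to a rat. The p-values measure the spread between these samples and treat them as independent. Whether the in-between array of each group is independent of the other arrays of its group is not known and was not tested. The first question was whether ghrelin altered these mRNAs in androgen-treated prostates. In BPH+ghrelin compared to BPH, 35 of 45 genes were higher and 10 were lower, with a median log2 difference of 0.40, compared to 0.015 over all 19749 genes tested. Of the 45 genes, *Mcm3* alone rose at an adjusted p under 0.05 (limma, Benjamini-Hochberg over all genes), where 0.496% of all genes were called higher. No gene of the set was called lower, compared to 0.987% of all genes. The unadjusted p was under 0.05 for 17 genes in the higher direction, where 10.7% of all genes were, and for 1 gene in the lower direction, where 10.5% were. At least 2-fold higher were 7 of 45 genes, compared to 2.90% of all genes, and 0 were at least 2-fold lower, compared to 3.20%. The arrays did not overlap for 20 of 45 genes that were higher, compared to 19.8% of all genes, and for 3 genes that were lower (*Orc2*, *Orc4* and *Orc5*), compared to 19.3%. Over the 36 genes well above background on all arrays the median was 0.43. With another background correction (normexp), medians were smaller and fewer genes were at least 2-fold apart in all 3 comparisons. The last section gives the values. Markers of other cell types also differed in this comparison, more of them downwards. Of 8 tested fibroblast markers, 5 were lower in BPH+ghrelin without overlap and 0 were higher. Among them, *Lum*, a collagen-binding proteoglycan, was at 6.33 to 6.98 in BPH and at 4.62 to 5.39 in BPH+ghrelin, and the others were *Dcn*, *Pdgfra*, *Fbln1* and *Postn*. Of 8 tested smooth muscle markers, *Myh11* (11.18 to 11.42 against 10.37 on all BPH+ghrelin arrays), *Tagln* and *Lmod1* were lower without overlap and 0 were higher. Of 5 tested basal epithelial markers, *Krt5*, *Krt14* and *Krt17* were lower and *Krt15*, the brightest of them, was higher without overlap. Of 9 tested immune markers (12 matched), *Ptprc*, *Cd3d*, *Adgre1* and *Nkg7* were lower and 1 was higher without overlap, and *Itgam* was well above background on 0 of these 6 arrays. The median differences of the 4 lists were −0.57 (fibroblast), −0.52 (smooth muscle), −0.24 (basal) and −0.55 (immune). The summed log2 signals in BPH and in BPH+ghrelin were 14.3 to 14.9 and 14.2 to 14.7 for fibroblast markers, 14.1 to 15.1 and 14.1 to 14.2 for smooth muscle, 12.4 to 12.8 and 12.8 to 12.9 for basal cells, where *Krt15* made most of the signal, and 10.2 to 11.1 and 9.89 to 9.94 for immune cells. Their part in these differences was not tested.

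The MCM helicase unwinds DNA at the fork. *Mcm3*, a subunit of its ring, was at 8.97, 9.30 and 9.64 in BPH and at 10.61, 10.40 and 10.25 in BPH+ghrelin. All BPH+ghrelin arrays were above all BPH arrays, and the difference was 1.12 ± 0.18 (SE), a 2.17-fold rise (adjusted p = 0.0349). Another probe of *Mcm3* gave a difference of 0.60. *Mcm6*, another ring subunit, was at 6.07, 6.73 and 7.15 in BPH and at 7.61, 7.43 and 7.10 in BPH+ghrelin. BPH replicate 3 reached into the range of BPH+ghrelin, and the difference of 0.73 ± 0.27 missed the threshold (adjusted p = 0.180). *Mcm4* differed by 0.62 ± 0.28 with overlapping arrays, and its other probe by 0.059. *Mcm2* (−0.030 ± 0.11) and *Mcm7* (0.072 ± 0.23) overlapped between the groups. *Mcm10*, which helps to activate the helicase, differed by 0.88 ± 0.42 and was detected on 2 of 3 BPH arrays.

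The 6 tested MCM genes thus differed by −0.030 to 1.12. Next come the factors that load and fire the helicase. *Cdc6*, the ATPase that loads MCM onto origins, was at 3.57, 4.52 and 5.17 in BPH and at 6.23, 5.89 and 5.27 in BPH+ghrelin. The arrays did not overlap by a narrow margin, and the difference was 1.37 ± 0.45 (adjusted p = 0.146). *Gmnn*, which encodes geminin, the inhibitor of CDT1, differed by 0.93 ± 0.29 without overlap. *Cdc45*, a helicase cofactor, was at 5.74, 6.45 and 7.06 in BPH and at 8.23, 7.84 and 7.36 in BPH+ghrelin. All 3 BPH+ghrelin values lay above BPH, and the difference was 1.39 ± 0.40 (adjusted p = 0.115). *Gins1*, a subunit of the GINS complex, was at 7.13, 7.43 and 7.78 in BPH and at 8.56, 8.38 and 8.17 in BPH+ghrelin. The groups were again apart, by 0.92 ± 0.22 (adjusted p = 0.0817). *Dbf4*, the activating subunit of the CDC7 kinase, was at 3.68, 4.15 and 4.26 in BPH and at 4.82, 4.76 and 4.76 in BPH+ghrelin. It differed by 0.75 ± 0.16 (adjusted p = 0.0665), while *Cdc7* itself differed by 0.30 ± 0.45 with overlap. All 6 tested firing genes were higher in BPH+ghrelin, with a median of 0.83, and 0 of 6 were called.

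The origin recognition genes had no common direction. Of 6 tested, 2 were higher and 4 lower in BPH+ghrelin, with a median of −0.15. *Orc5* was at 7.16, 6.75 and 6.95 in BPH and at 6.56, 6.62 and 6.62 in BPH+ghrelin, so that all BPH+ghrelin values were below BPH. The difference was −0.35 ± 0.13 (adjusted p = 0.184). *Orc4* (−0.25 ± 0.13) and *Orc2* (−0.26 ± 0.20) were lower without overlap, and *Orc6* (−0.053 ± 0.12) overlapped. *Orc1*, the subunit whose mRNA cycles with E2F, was at 6.10, 6.22 and 6.41 in BPH and at 7.01, 6.51 and 5.94 in BPH+ghrelin. BPH+ghrelin spanned all BPH values, and the difference was 0.25 ± 0.26. None of the 6 differences passed the test.

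At the fork, PCNA is the ring that holds polymerases on DNA, and the RFC complex loads it. *Pcna* was at 11.01, 11.15 and 11.24 in BPH and at 11.80, 11.61 and 11.40 in BPH+ghrelin. The groups did not overlap and differed by 0.47 ± 0.14 (adjusted p = 0.131). The 5 loader genes differed by −0.21 to 0.50, with *Rfc3* highest at 0.50 ± 0.24 and *Rfc1* lowest. *Pold1*, the catalytic subunit of polymerase δ, was at 7.97, 7.96 and 8.02 in BPH and at 8.65, 8.49 and 8.46 in BPH+ghrelin. The BPH arrays spanned 0.058, and the difference was 0.55 ± 0.12 (adjusted p = 0.0607). *Pold2*, its accessory subunit, differed by 0.48 ± 0.12 (adjusted p = 0.0856), and *Prim2*, the large primase subunit, by 0.62 ± 0.17 (adjusted p = 0.112). *Pola1* (−0.063 ± 0.26), *Pola2* (−0.29 ± 0.57) and *Prim1* (0.024 ± 0.18), the other tested genes of the polymerase α-primase complex, were not higher in this way. *Fen1*, the flap nuclease of Okazaki fragments, differed by 0.56 ± 0.25 with overlap, *Rnaseh2a* by 0.38 ± 0.15, and *Lig1*, the ligase, by 0.14 ± 0.16. The single-strand binding genes *Rpa2* and *Rpa3* differed by 0.23 ± 0.14 and 0.24 ± 0.17.

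The widest differences of this comparison, and the widest ranges within BPH, were found among the enzymes of deoxynucleotide synthesis. *Rrm2*, the small subunit of ribonucleotide reductase, which is made in S phase, was at 8.95, 10.78 and 11.56 in BPH and at 13.07, 12.54 and 11.85 in BPH+ghrelin. The groups did not overlap, but the BPH arrays alone spanned 2.61 log2 units, and the 4.17-fold difference (2.06 ± 0.64) did not pass the test (adjusted p = 0.136). Its other probe gave 1.90, and leaving out 1 of the 6 compared arrays gave differences of 1.32 to 2.63. *Tk1*, thymidine kinase 1 of the salvage pathway, was at 6.41, 7.61 and 8.46 in BPH and at 9.51, 9.14 and 8.56 in BPH+ghrelin. BPH replicate 3 came close to BPH+ghrelin replicate 3, and the 2.99-fold difference (1.58 ± 0.47) was not called (adjusted p = 0.122). *Tyms*, thymidylate synthase, was at 5.61, 6.42 and 6.92 in BPH and at 7.57, 7.32 and 6.80 in BPH+ghrelin, with overlap and a difference of 0.91 ± 0.33 (adjusted p = 0.176). *Rrm1*, the large reductase subunit, differed by 0.40 ± 0.21, and *Dut*, which hydrolyses dUTP, by −0.27 ± 0.39. *Chaf1b*, a subunit of the chromatin assembly factor that places histones behind the fork, was at 6.42, 6.79 and 7.20 in BPH and at 8.86, 8.28 and 7.70 in BPH+ghrelin. It differed by 1.47 ± 0.36 without overlap (adjusted p = 0.0840). *E2f1* was at 7.74, 8.29 and 8.75 in BPH and at 9.10, 9.02 and 9.06 in BPH+ghrelin, a difference of 0.80 ± 0.26 (adjusted p = 0.143), and its other probe gave 0.89.

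**Figure D3:**
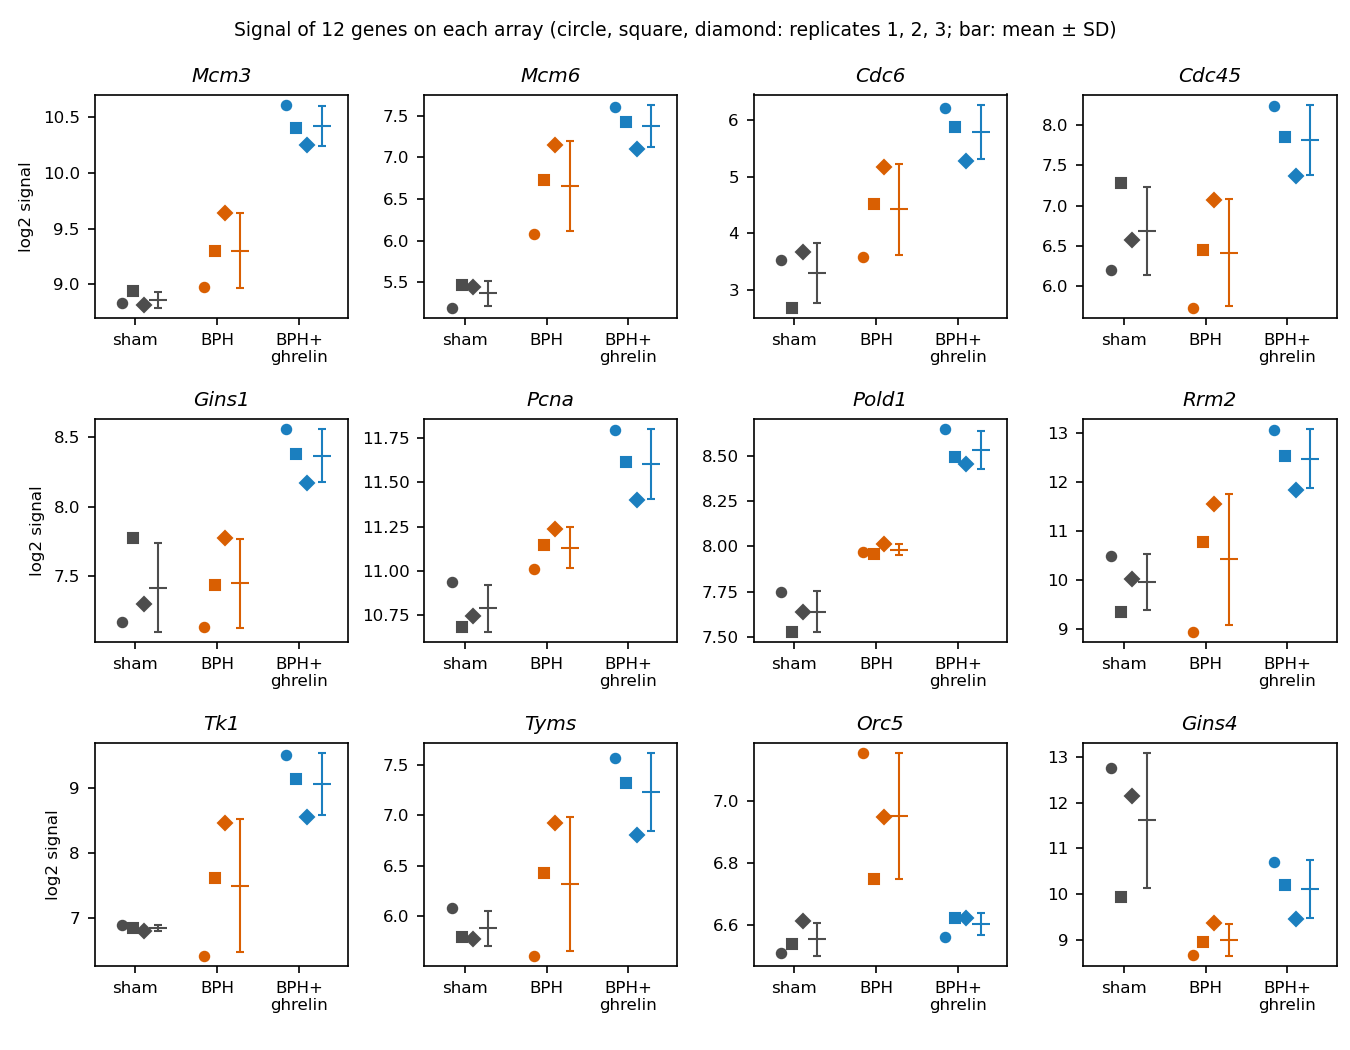
Log2 signal of 12 genes on each array, with sham in grey, BPH in orange and BPH+ghrelin in blue; circles, squares and diamonds are replicates 1, 2 and 3, bars are mean ± SD (n = 3), and each panel has its own vertical scale that does not start at 0. *Mcm3*, *Pold1* and *Rrm2* are above every BPH array in BPH+ghrelin, *Orc5* is below, and the arrays of a group spread widely for *Rrm2*, *Tk1* and *Gins4*.

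The 3 arrays per group allow no p below 0.1 in a two-sided exact permutation test of 1 gene, so all calls rest on the limma model. The call of *Mcm3* was lost when any 1 of the 6 compared arrays other than BPH replicate 3 was left out (0 genes called in each case, *Mcm3* adjusted p up to 0.178), and when scan or replicate number entered the model or the probes of a gene were averaged. Within scan 1, BPH+ghrelin replicate 1 exceeded the mean of the 3 BPH arrays by a median of 0.65 over the 45 genes, with 37 genes higher, 11 at least 2-fold higher and 35 above every BPH array. Over all genes this difference had a median of −0.00082, 3.42% were at least 2-fold higher, and 33.8% were above every BPH array. The fit with scan as a block gives this same difference, because only scan 1 held both groups.

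The second question was how the BPH model itself stood against sham. Comparisons that follow share arrays with the first one and with each other. In BPH compared to sham, 35 of 44 genes were higher, with a median of 0.31, compared to 0.039 over all 19552 genes. *Mcm6* was the 1 gene called higher, where 2.15% of all genes were called, and 0 of 44 were called lower, compared to 2.18%. The unadjusted p was under 0.05 for 15 genes in the higher direction, compared to 14.4% of all genes. At least 2-fold higher were 4 genes, compared to 3.53%, and 1 gene was at least 2-fold lower, compared to 4.63%. The arrays did not overlap for 15 genes that were higher, compared to 17.1% of all genes, and for 1 that was lower, compared to 14.2%. These counts hold *Pola2*, which passed the filter through BPH alone. Over the 43 genes detected in both groups, 34 were higher, 14 had an unadjusted p under 0.05 in that direction, 3 were at least 2-fold higher, 14 were higher without overlap, and the median was 0.31. The summed seminal vesicle and coagulating gland markers, of which 4 to 6 of 7 matched were well above background, were at 16.5 to 17.3 in sham and at 9.5 to 14.8 in BPH. The immune markers were at 12.6 to 14.7 in sham and at 10.2 to 11.1 in BPH, and *Cd52*, a leukocyte surface antigen that the epididymis also expresses, made most of the sham signal (12.2 to 14.6). Without overlap, 4 of 6 tested seminal vesicle markers and 5 of 8 immune markers were lower in BPH, the immune marker *Adgre1* was higher (6.63 to 6.79 against 4.97 to 6.12 in sham), and 3 of 5 basal markers were higher and 1 was lower. Their part was not tested.

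*Mcm6* was at 5.19, 5.46 and 5.44 in sham and at 6.07, 6.73 and 7.15 in BPH. All BPH arrays were above sham, and it rose by 1.29 ± 0.27, which is 2.44-fold (adjusted p = 0.0395). *Orc1* was at 4.89, 5.37 and 5.03 in sham, also below every BPH array, and its difference of 1.15 ± 0.26 was just outside the threshold (adjusted p = 0.0525). *Orc4* (0.47 ± 0.13), *Orc5* (0.40 ± 0.13) and *Orc6* (0.31 ± 0.12) were higher in BPH without overlap, and *Orc3* was lower by 0.40 ± 0.22 with overlap. *Rfc4* (0.52 ± 0.14) and *Rfc5* (0.42 ± 0.13), both clamp loader subunits, were higher without overlap. *Mcm3* was at 8.83, 8.94 and 8.81 in sham and differed by 0.44 ± 0.18 (adjusted p = 0.174). None of these was called.

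Of the 7 genes past 2-fold in the first comparison, *Rrm2*, *Tk1*, *Cdc45*, *Chaf1b* and *Cdc6* overlapped between BPH and sham, *Mcm3* was higher without overlap and *Gins4* was lower without overlap. *Rrm2* was at 10.49, 9.35 and 10.03 in sham, inside the range of BPH, and differed by 0.47 ± 0.64. *Tk1* was at 6.89, 6.83 and 6.79 in sham, with BPH replicate 1 below and the other two BPH arrays above, and differed by 0.66 ± 0.47. *Cdc6*, detected on 2 of 3 sham arrays, differed by 1.13 ± 0.45 in BPH compared to sham. *Cdc45* (−0.27 ± 0.40), *Chaf1b* (−0.37 ± 0.36), *Gins1* (0.030 ± 0.22), *Gmnn* (0.022 ± 0.29) and *Pold2* (0.027 ± 0.12) overlapped as well. *Gins4*, another GINS subunit, went against the set. It was at 12.76, 9.94 and 12.16 in sham and at 8.66, 8.96 and 9.36 in BPH, a difference of −2.62 ± 0.67 (adjusted p = 0.0660). Sham replicates 1 and 3 were far above sham replicate 2, which was still above every BPH array. *Pola2*, the B subunit of polymerase α, was detected on 3 of 3 BPH arrays and on 0 of 3 sham arrays, and no fold is given for it. With scan as a block, the median difference between BPH and sham was 0.044, compared to 0.058 over all genes. In that fit 24 of 44 genes were higher and 0 were called. No scan held both BPH and sham, so there is no value within a scan. The call of *Mcm6* was also lost without BPH replicate 2, BPH replicate 3, sham replicate 2 or sham replicate 3, with 0 to 5 genes of the set called when 1 of the 6 compared arrays was left out.

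In BPH+ghrelin compared to sham, 40 of 44 genes were higher, with a median of 0.62, compared to 0.041 over all 19197 genes. Of the 44 genes, 13 were called higher, compared to 3.00% of all genes, and 0 were called lower, compared to 3.30%. They were *Mcm3*, *Mcm6*, *Cdc6*, *Orc1*, *Dbf4*, *Gins1*, *Pcna*, *Rfc4*, *Rfc5*, *Pold1*, *Pold2*, *Tk1* and *E2f1*. The unadjusted p was under 0.05 for 28 genes in the higher direction, compared to 13.6% of all genes. At least 2-fold higher were 13 genes, compared to 3.21%, and 1 was at least 2-fold lower (*Gins4*), compared to 4.20%. Fewer genes were 2-fold apart with normexp, as given in the last section. The arrays did not overlap for 29 genes that were higher, compared to 17.5%, and for 1 that was lower (*Rfc1*, −0.45 ± 0.19), compared to 12.8%. *Mcm10* passed the filter through BPH+ghrelin alone. Over the 43 genes detected in both groups, 39 were higher, 13 were called, 27 had an unadjusted p under 0.05 in that direction, 12 were at least 2-fold higher, 28 were higher without overlap, and the median was 0.61. The immune, seminal vesicle and basal markers differed in this comparison too, with summed log2 signals of 9.89 to 9.94 against 12.6 to 14.7, of 9.17 to 11.95 against 16.5 to 17.3, and of 12.8 to 12.9 against 12.1 to 12.6. Without overlap, 5 of 8 tested immune, 4 of 6 seminal vesicle and 4 of 4 endothelial markers were lower, and 3 of 5 basal markers were higher. What these contributed was not tested.

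The calls were spread over 8 of the 11 roles. They were 1 of 6 origin recognition genes, 1 of 2 licensing genes, 2 of 6 MCM genes, 2 of 6 firing genes, 3 of 6 clamp and loader genes, 2 of 6 polymerase genes, 1 of 5 deoxynucleotide genes and the 1 tested E2F gene. No single-strand binding, Okazaki fragment or chromatin gene was called. Among the licensing and helicase genes, *Cdc6* was at 3.53, 2.68 and 3.66 in sham, below all BPH+ghrelin arrays, and rose 5.69-fold (2.51 ± 0.44, adjusted p = 0.0195). It was detected on 2 of 3 sham arrays, so the fold rests in part on a sham value that was not well above background. *Mcm6* rose 4.04-fold (2.01 ± 0.27, adjusted p = 0.00643) and *Mcm3* 2.94-fold (1.56 ± 0.18, adjusted p = 0.00381). *Orc1* rose 2.63-fold (adjusted p = 0.0243). The differences of the remaining 5 origin recognition genes lay between −0.18 and 0.26. *Mcm10* was detected on 3 of 3 BPH+ghrelin arrays and on 0 of 3 sham arrays, and was at least 2.04-fold higher. It had to differ to pass the filter, so no p is given. The bound was computed against the lowest signal that counted as well above background.

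Among the firing and fork genes, *Dbf4* was at 3.80, 3.71 and 3.90 in sham, where it was detected on 2 of 3 arrays, and rose 1.96-fold (adjusted p = 0.0158). *Gins1* rose 1.93-fold (adjusted p = 0.0438), while *Gins4* was lower by 1.50 ± 0.67 with overlap. *Pcna* was at 10.94, 10.68 and 10.75 in sham, below every BPH+ghrelin array, and rose 1.76-fold (adjusted p = 0.0191). *Pold1* was at 7.75, 7.53 and 7.64 in sham and rose 1.86-fold (adjusted p = 0.00552). *Pold2* (0.51 ± 0.12, adjusted p = 0.0425), *Rfc4* (0.78 ± 0.14, adjusted p = 0.0207) and *Rfc5* (0.54 ± 0.13, adjusted p = 0.0458) rose by smaller amounts. *Rfc2* (0.30 ± 0.12) and *Rfc3* (0.41 ± 0.24) were higher without a call.

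In deoxynucleotide synthesis, *Tk1* rose 4.71-fold (2.24 ± 0.47, adjusted p = 0.0327), and the sham arrays spanned 0.096. *Rrm2* was 5.77-fold higher (2.53 ± 0.64) without overlap, but missed the threshold (adjusted p = 0.0571), as did *Tyms* at 2.54-fold (adjusted p = 0.0514). *E2f1* rose 2.33-fold (adjusted p = 0.0330) by the probe used, whereas its other probe differed by −0.12, so that this call rests on 1 probe. *Fen1* (0.90 ± 0.25, adjusted p = 0.0724) and *Chaf1b* (1.11 ± 0.36, adjusted p = 0.107) were higher without overlap and were not called.

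**Figure D4:**
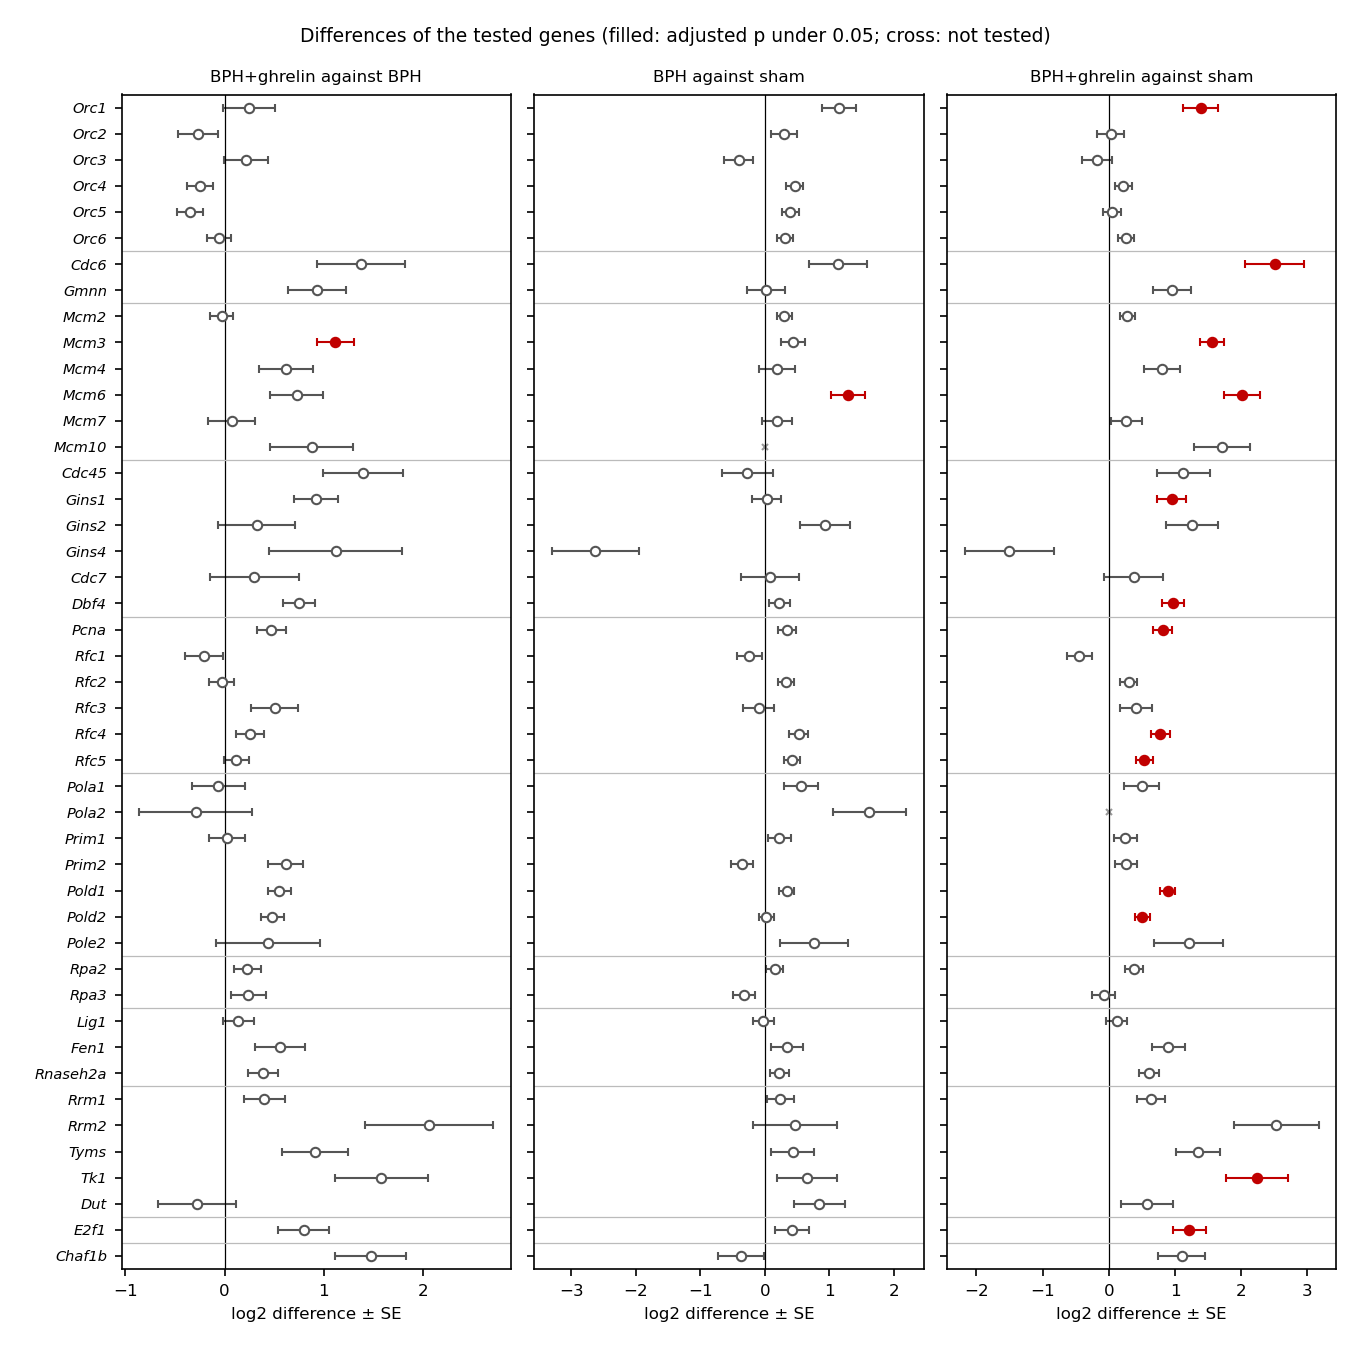
Log2 difference ± SE (limma) of each tested gene, in the same order of roles as above, for the 3 comparisons; filled red points have an adjusted p under 0.05 and crosses mark genes not tested, and each panel has its own horizontal scale. The 1 red point for BPH+ghrelin against BPH is *Mcm3*, the 1 for BPH against sham is *Mcm6*, and BPH+ghrelin against sham has 13. The points of *Pola2* for BPH against sham and of *Mcm10* for BPH+ghrelin against sham are fitted to sham values not well above background and are no measured fold.

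With scan as a block, 0 genes were called, although the median stayed at 0.63. The blocked difference is the one within scan 2, so the values that follow are no separate check. Within scan 2, where BPH+ghrelin replicates 2 and 3 stood against sham replicates 1 and 2, the median over the 43 genes detected in both groups was 0.62. There 38 of 43 genes were higher, 10 at least 2-fold and 30 without overlap, and all 19013 genes detected in both groups had a median of 0.051 with 3.63% at least 2-fold higher and 23.2% higher without overlap. Leaving out 1 of the 6 compared arrays gave between 3 and 19 calls, with 3 calls without BPH+ghrelin replicate 1, BPH+ghrelin replicate 2 or sham replicate 3 and 7 without BPH+ghrelin replicate 3, and *Mcm3*, *Mcm6* and *Pold1* were called in each of the 6 fits. Without the in-between array of every group, 0 genes of the set were called in any of the 3 comparisons, and the medians were 0.43, 0.30 and 0.71.

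**Figure D5:**
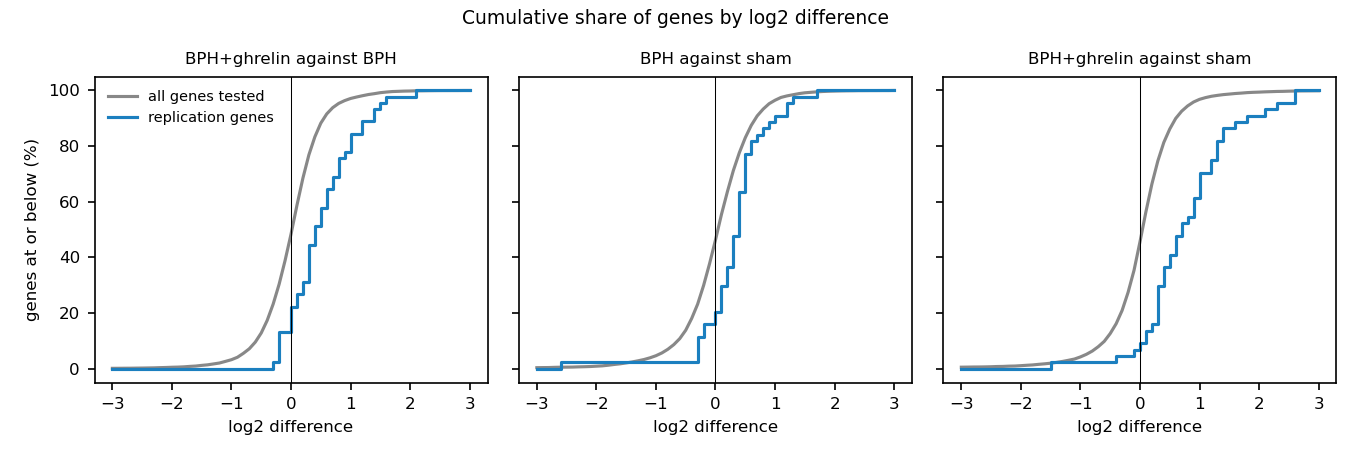
Cumulative share of genes (percent, vertical) at or below each log2 difference (horizontal) for the tested replication genes (blue steps) and all genes tested (grey line) in the 3 comparisons. The blue steps lie to the right of the grey line over most of the range, with medians of 0.40, 0.31 and 0.62 compared to 0.015, 0.039 and 0.041, and the step at the far left of both comparisons with sham is *Gins4*.

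The difference between groups was set beside the presence of an E2F word. In BPH+ghrelin compared to BPH, the 8 tested genes with a word had a median of 0.14 and ranged from −0.35 to 0.92, and 5 of 8 were higher. The 29 tested genes with a promoter entry and without a word had a median of 0.40, and 23 of 29 were higher. Left out for want of a promoter entry were *Rrm2*, *Cdc6*, *Gins4*, *E2f1*, *Mcm4*, *Orc1*, *Rpa3* and *Orc4*. Their differences ranged from 2.06 (*Rrm2*) to −0.25 (*Orc4*). Only the words listed above were searched, so a gene without a word may hold another sequence bound by E2F. Among the genes whose windows are shown above, those with a word were *Gins1* (0.92), *Tyms* (0.91), *Mcm6* (0.73), *Mcm2* (−0.030) and *Orc5* (−0.35). Those without a word were *Tk1* (1.58) and *Mcm3* (1.12). Against sham, the medians in BPH+ghrelin were 0.39 with a word and 0.62 without, and in BPH 0.35 and 0.27. No test was made on these counts.

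Further genes of the same pathway, outside the set, were described from 5 lists. Of 17 tested further replication factors (28 listed), 13 were higher in BPH+ghrelin compared to BPH, with a median of 0.33, and 0 were called. *Timeless*, a fork protection factor, was at 6.88, 7.47 and 7.93 in BPH and at 8.81, 8.60 and 8.50 in BPH+ghrelin. It was higher on all BPH+ghrelin arrays, by 1.21 ± 0.26 (adjusted p = 0.0624), and it rose 3.37-fold compared to sham (adjusted p = 0.00968). *Donson*, a replisome protein, rose 2.06-fold in BPH (adjusted p = 0.0210) and 2.61-fold in BPH+ghrelin (adjusted p = 0.0052), both compared to sham, and *Chtf18*, of an alternative clamp loader, rose 1.75-fold in BPH+ghrelin compared to sham (adjusted p = 0.0400).

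Of 26 tested genes of nucleotide synthesis outside the set, 15 were higher in BPH+ghrelin compared to BPH, with a median of 0.038. *Paics* (−0.84) and *Ppat* (−0.999), enzymes of de novo purine synthesis, were lower without overlap and were not called. *Rrm2b*, the reductase subunit that p53 induces, rose in BPH (2.32-fold, adjusted p = 0.0231) and in BPH+ghrelin (2.45-fold, adjusted p = 0.0147) compared to sham, and differed by 0.076 between BPH+ghrelin and BPH.

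Of 10 tested genes of the E2F and RB family, 4 were higher in BPH+ghrelin compared to BPH, with a median of −0.11. *E2f3*, an activating E2F, differed by 0.86 without overlap, and *Rb1*, which restrains E2F, by −0.91. Neither passed the test. *E2f7*, a repressing E2F, fell in BPH (0.52-fold, adjusted p = 0.0422) and in BPH+ghrelin (0.55-fold, adjusted p = 0.0432) compared to sham. In the checkpoint list of 7 tested genes, *Rad17*, which loads the checkpoint clamp, was the 1 call. It was at 7.04, 6.95 and 7.03 in BPH, at 6.26, 6.30 and 6.29 in BPH+ghrelin and at 6.45, 6.00 and 6.22 in sham, so that BPH alone was high. It rose in BPH compared to sham by 0.79 ± 0.13 (adjusted p = 0.0222) and fell with ghrelin by 0.73 ± 0.13 (adjusted p = 0.0458). Of 10 tested genes of histone and chromatin supply, 6 were higher in BPH+ghrelin compared to BPH, with a median of 0.12, and 0 were called in any comparison.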

How the data were processed

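Agilent one-colour arrays of rat prostate were analysed, 3 per group, and groups were taken from the sample labels. The intensities deposited by the authors were processed signals of Feature Extraction 11.0.1.1 on a linear scale, with background subtracted and without normalization between arrays. A deposited matrix of log2 values, quantile normalized by the authors in GeneSpring GX, served as an alternative. Among the 9 arrays, the highest correlation of a matrix column was always with the array of the same sample (Spearman 0.985 to 0.996). Outlier spots (313 to 741 per array) were removed, spots of a probe were averaged, and 11 of 30367 probes were dropped. The log2 signals of 30356 probes were quantile normalized. By accession, 17998 probes (59.3%) were matched to symbols of the RefSeq table (GRCr8), which differs from the build in the array headers (rn4) and was used for names and promoter sequences. Where several probes of a gene passed, the one with the highest mean over 9 arrays was used.

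Differences were tested with limma 3.58.1 in R 4.3.3 (3 groups, 9 arrays, no covariate, Benjamini-Hochberg over all genes tested, threshold 0.05). The number of arrays limits the precision. Tested on simulated data for BPH+ghrelin against BPH with 19749 genes, 43% of 2-fold and 81% of 4-fold changes were called. The simulated noise was independent between genes and arrays, without scans or in-between arrays, so these shares may not hold for the real arrays. Named genes were those called in any comparison, the gene with the largest difference in each role, and examples set by hand; other genes were named for their role. The values of some genes outside the set are not reported here. The members, lists and tests were chosen with earlier results of these data known. Alternatives were the 75th percentile scaling, normexp (offset 50, on median signals, as the scanner files hold no mean signal), no filter on dim probes or a filter on all 6 arrays, the 6 arrays compared, the mean of probes, eBayes with trend and robust, the deposited matrix, scan or replicate number as a block, each array left out, and, chosen after seeing the data, the in-between arrays left out and differences within a scan.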

Additional observations from a re-analysis of the deposited data

How the results depend on the processing

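The number of arrays and dim probes limited these measurements, and 3 matched genes of the set could not be tested. The median difference of the set stayed above 0 under every alternative run. In BPH against sham with scan as a block it was 0.044, below the 0.058 of all genes, and 24 of 44 genes were higher. Genes of the set called in BPH+ghrelin against BPH, BPH against sham and BPH+ghrelin against sham were 1, 1 and 13. In the first comparison they numbered 3 with 75th percentile scaling, 3 with normexp, 7 with the 6 arrays compared, 0 with the mean of probes, 0 with scan as a block and 0 without the in-between arrays. In the second they numbered 0 without a filter, 2 with the filter on all 6 arrays, 0 with the 6 arrays compared, 2 with the deposited values, 2 with trend and robust, 0 with scan as a block and 0 without the in-between arrays, and in the third 8 without a filter, 0 with scan as a block and 0 without the in-between arrays. Genes at least 2-fold apart in either direction numbered 7, 5 and 14; they were 4, 1 and 4 with normexp, 11 and 2 in the first 2 comparisons with scan as a block, and 3 in the second with 75th percentile scaling or the filter on all 6 arrays. The medians were 0.17, 0.17 and 0.28 with normexp, and 0.65 and 0.044 in the first 2 comparisons with scan as a block. In the first comparison the blocked difference is the one within scan 1. It rests on BPH+ghrelin replicate 1 alone for that group and is no separate check. Leaving out 1 of the 6 compared arrays gave 0 to 1, 0 to 5 and 3 to 19 calls, 4 to 12, 4 to 8 and 11 to 17 genes at least 2-fold apart, and medians of 0.33 to 0.49, 0.17 to 0.35 and 0.56 to 0.73.

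Calls over all genes were 293, 847 and 1210. They were 3 to 398, 119 to 3071 and 222 to 1926 when 1 array was left out, 195, 533 and 803 without a filter, 2, 2 and 84 with scan as a block, and 0, 3 and 2 without the in-between arrays (unadjusted p under 0.05 for 832, 1174 and 1337 genes). In the first comparison they were 515 with 75th percentile scaling and 2106 with the 6 arrays compared, and in the second 180 with the latter. The 75th percentile scaling moved the median of all genes in BPH against sham from 0.039 to −0.087, and the share of calls that were higher from 49.7% to 32.0%; in BPH+ghrelin against BPH this share moved from 33.4% to 47.2%, and to 45% with normexp. The causes were not tested.

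Deviations of same-numbered arrays of different groups had correlations of −0.18 to 0.38, inside the range of differently numbered arrays (−0.39 to 0.41). No pairing by number was seen. With the replicate number as a block, 0, 0 and 4 genes of the set (*Dbf4*, *Mcm3*, *Mcm6* and *Pold1*) and 17, 243 and 461 of all genes were called.

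Some single differences turned their sign. In BPH against sham, scan as a block gave −0.31 for *Gins1*, −0.17 for *Pold2*, −0.026 for *Tk1*, −0.37 for *Rrm2*, −0.13 for *Fen1* and −0.12 for *Tyms*, where *Tk1*, *Rrm2* and *Tyms* were reported at 0.66, 0.47 and 0.43. *Pold2* was −0.051 with 75th percentile scaling and −0.031 with normexp, *E2f1* was −0.29 with the mean of probes (reported at 0.42), and *Gins1* was −0.020 without the in-between arrays. In BPH+ghrelin against sham, *Orc5* was −0.067 with 75th percentile scaling and −0.00213 with normexp. When 1 array was left out, *Mcm2* ranged from −0.075 to 0.041 and *Orc1* from −0.017 to 0.52 in BPH+ghrelin against BPH. In BPH against sham, *Gins1* ranged from −0.13 to 0.21, *Pold2* from −0.034 to 0.062, *Rrm2* from −0.096 to 1.21, *Cdc45* from −0.59 to 0.072 and *Rfc3* from −0.32 to 0.19. *Rpa3* ranged from −0.19 to 0.059 in BPH+ghrelin against sham. Over all alternatives of the named genes, 106 values lost a call and 25 gained one.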
